A study of Mus musculus with 23 samples.

Results

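The effect of losing Mcu on the transcriptome of brown adipose tissue (BAT) without cold was examined by comparing the 6 BAT-Mcu-KO mice kept at room temperature (RT) with the 6 control mice kept at RT. The members are the 12 libraries that the labels place in these groups, of 23 libraries in the series, and all 14651 genes in the table were compared. All were male mice of 8 to 12 weeks, and the labels give a housing period of 6 h. Their background was C57BL/6, which the study's methods describe as nearly but not fully homogeneous for the floxed line. Control mice (Ctrl RT) carried Mcu[fl/fl], in which loxP sites flank exon 2 on both alleles, and BAT-Mcu-KO mice carried Mcu[fl/fl];Ucp1-Cre, so both genotypes share the floxed allele and differ by the transgene. That transgene, from the line B6.FVB-Tg(Ucp1-cre)1Evdr/J, expresses Cre where the Ucp1 promoter is active, so deletion is directed to brown adipocytes while vessels, nerves, blood and immune cells of the tissue keep Mcu. No mice that carry the transgene with an intact Mcu were analysed here, and the effects of the transgene and of the deletion therefore cannot be told apart. The remaining mice, 5 control and 6 BAT-Mcu-KO animals kept at 4°C, served as separate animals in which the same genotype effect could be read.

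The mitochondrial calcium uniporter is a channel of the inner mitochondrial membrane. MCU forms its pore, EMRE (encoded by Smdt1) is needed for it to conduct, and regulatory subunits gate it by sensing cytosolic calcium. Calcium that enters the matrix is known to activate pyruvate dehydrogenase and enzymes of the citrate cycle, and brown adipocytes are packed with mitochondria in which UCP1 dissipates the proton gradient as heat.

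Values are normalized counts, a gene's reads after division by a size factor that corrects for the depth of each library. Reads on the listed genes numbered 11724234 to 17394689 in Ctrl RT and 11088466 to 14582523 in BAT-Mcu-KO RT, and the groups overlapped (exact permutation test, two-sided, p = 0.903, where 6 mice against 6 allow 0.00216 at the least). Transcripts of the mitochondrial genome took 23.1% to 34.5% of the reads in controls and 31.3% to 34.8% in BAT-Mcu-KO mice (exact permutation test, two-sided, p = 0.706). The tissue carried its defining markers at high levels, the 11 brown adipocyte markers summing to 129350 to 180482 in controls and 126331 to 140951 in BAT-Mcu-KO mice. Several libraries stood apart. Ctrl RT 1 and 6 lay farthest out on the first principal component, and skeletal muscle markers were high in BAT-Mcu-KO RT 3, 4 and 6. Values without either set are given where they remove a call or turn the median of a list described here. Whether replicates came from separate litters or days is not given in the labels. The exact permutation tests use these 12 mice alone. Unless stated, limma p-values and SEs rest on the spread within groups over all 23 mice, those at 4°C included.

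The targeted sequence is exon 2 of the full-length Mcu transcript (GENCODE M21, GRCm38, minus strand), shown here because its loss defines the genotype. It lies at chr10:59491087-59491156, inside the coding region.
Mcu exon 2: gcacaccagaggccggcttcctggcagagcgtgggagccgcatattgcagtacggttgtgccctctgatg
Its 70 bases are not a whole number of codons, with 1 base over. In the reference, exon 1 ends after 49 codons, and a transcript joining exon 1 to exon 3 would read 50 codons before a stop, against 350 codons in the full transcript. The exon makes up 2.44% of the 2872 bases of this transcript, and a transcript lacking it would still collect reads from the remaining 7 exons, so the counts measure the transcript that remains and not functional channel.

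Mcu fell in every BAT-Mcu-KO mouse. Its normalized count was 81.4 at the lowest, 107 at the median and 136 at the highest in Ctrl RT, and 15.2, 38.1 and 42.4 in BAT-Mcu-KO RT. All 6 BAT-Mcu-KO mice lay below all 6 controls. The log2 fold change was -1.66 (SE 0.22, limma adjusted p = 0.001), a level of 0.317 of control. BAT-Mcu-KO RT 4 had the lowest value, 15.2, while the other 5 lay between 36.2 and 42.4. At 4°C, in other animals, the log2 fold change was -1.61.

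Few genes beyond Mcu passed the test at RT. Of 14651 genes, 7 passed an adjusted p of 0.05 (limma with Benjamini-Hochberg adjustment), or 0.0478% of those tested, 3 of them higher (0.0205%) and 4 lower (0.0273%) in BAT-Mcu-KO mice. The higher genes were Gsta3, Elmod2 and Tbc1d9. The lower genes were Mcu, Egr1, Gm37084 and Mir1904. Without Ctrl RT 1 and 6, Mcu, Gsta3 and Egr1 were called, while Elmod2, Tbc1d9, Gm37084 and Mir1904 kept their direction and lost the call. With only the RT samples, Mcu, Gsta3 and Elmod2 were called and the other 4 were not. At an unadjusted p under 0.05 there were 754 genes, or 5.15%, where the level itself gives 5%, and 422 of these were higher (2.88% of all genes) and 332 lower (2.27%). The lowest bin of the p-value histogram held those 754 genes against an even share of 733, and the bins ranged from 676 to 775. With quantile normalization 387 of 884 such genes were higher, and with scaling to the 75th percentile 317 of 784, so the balance of directions among them depended on the scaling.

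**Figure D1:**
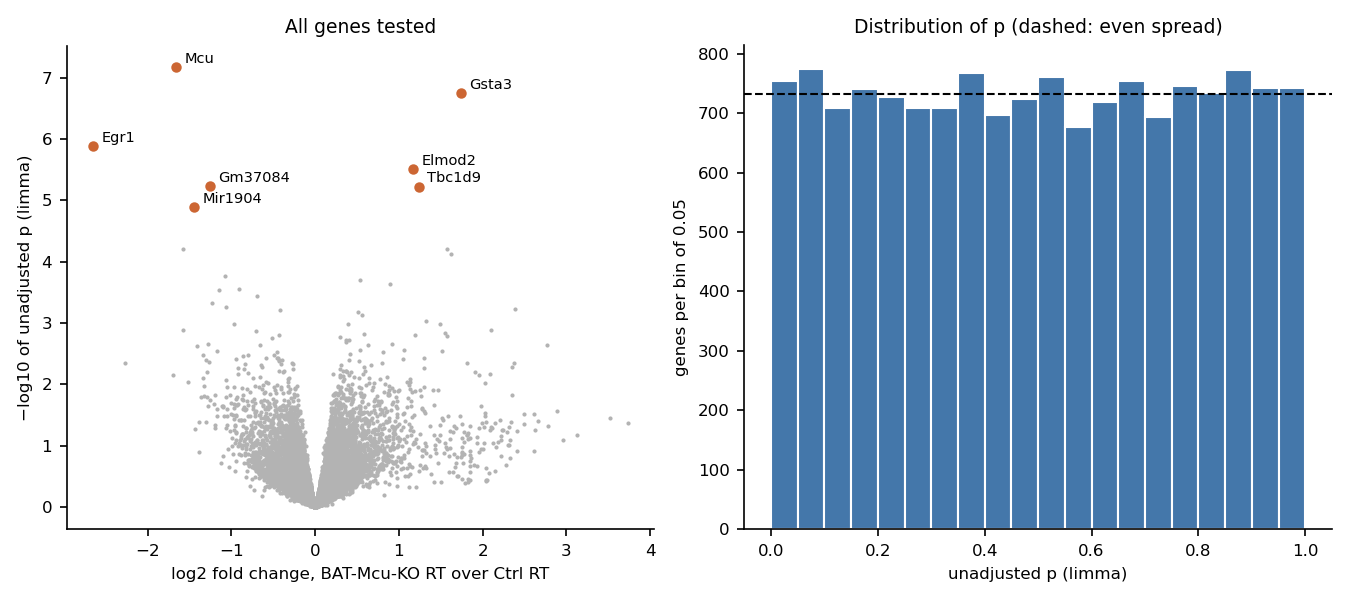
Left, the log2 fold change of each gene at RT against the −log10 of its unadjusted limma p, with the 7 called genes in orange and named. Right, the number of genes in each p-value bin of width 0.05, with the even share of 733 genes as a dashed line; the lowest bin holds 754.

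Gsta3, which encodes a cytosolic glutathione transferase, had the highest log2 fold change among the called genes. Its normalized count was 31.9, 35.9, 24.5, 25.0, 34.2 and 40.7 in Ctrl RT 1 to 6. In BAT-Mcu-KO RT 1 to 6 it was 70.8, 86.9, 124, 274, 97.6 and 77.0. Each BAT-Mcu-KO mouse thus exceeded each control. Number 4 had the highest value and the least Mcu, while in the other BAT-Mcu-KO mice Mcu was 36.2 to 42.4 and Gsta3 70.8 to 124. A relation between the levels of these genes was not tested. The log2 fold change was 1.74 (SE 0.25, limma adjusted p = 0.00131), a 3.35-fold difference, and it was 1.47 at 4°C (limma adjusted p = 0.0151).

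Glutathione transferases join glutathione to electrophiles, and the other members of the family were not called. Of 22 found, 1 was called, where 0.0478% of all genes were. The list was described because of that called gene, so this count is no separate result. No other member reached an unadjusted limma p under 0.05, where 5.15% of all genes did. The list median was -0.01, against 0.00078 over all genes, with 13 members negative, and relative to all genes it was 0.08 without Ctrl RT 1 and 6 and -0.12 without BAT-Mcu-KO RT 3, 4 and 6. The next smallest p belonged to Gstm6, whose normalized count was 1.04 to 19.8 in controls and 3.95 to 16.9 in BAT-Mcu-KO mice. Gstcd and Gstm4 had log2 fold changes of 0.28 and 0.17. Mgst1, the most abundant member at a mean of 10134 in controls, had a log2 fold change of -0.05.

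The 250 bases before the start of Gsta3 (RefSeq, GRCm38.p6, plus strand, chr1:21240335-21240584) are shown because Gsta3 was the called member of its family. Capitals mark the only match to the core of the antioxidant response element, TGACNNNGC, searched on both strands.
Gsta3 promoter: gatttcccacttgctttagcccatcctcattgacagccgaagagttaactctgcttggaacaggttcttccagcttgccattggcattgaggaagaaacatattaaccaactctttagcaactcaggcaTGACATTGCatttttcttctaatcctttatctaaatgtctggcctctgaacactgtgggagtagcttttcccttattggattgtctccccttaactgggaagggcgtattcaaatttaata
The match begins 121 bases before the start. Such a match was present in 3 of 20 glutathione transferase promoters (Gsta3, Gstm5 and Mgst1; 15.0%) and in 10.1% of 27025 promoters of all genes. The AP-1 motif TGANTCA, which can share letters with it, was absent from this window.

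Elmod2 and Tbc1d9 rose together, and both lie beside Ucp1. Elmod2, a GTPase-activating protein for ARL proteins, had a normalized count of 265, 357 and 421 at the lowest, median and highest in Ctrl RT and of 628, 770 and 937 in BAT-Mcu-KO RT. The groups did not overlap, and the log2 fold change was 1.17 (SE 0.20, limma adjusted p = 0.0113, and 0.108 without Ctrl RT 1 and 6). Tbc1d9, a TBC domain protein of the family that acts on RAB proteins, had 27.4, 14.5, 21.7, 37.0, 18.6 and 14.9 in the controls and 61.3, 68.8, 54.5, 34.9, 52.0 and 43.4 in BAT-Mcu-KO mice. Number 4 of the latter lay within the control range and the other 5 above it. Its log2 fold change was 1.24 (SE 0.22, limma adjusted p = 0.0145, and 0.309 with only the RT samples).

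Of the 13 genes tested within 500000 bases of Ucp1, these 2 were called, where 0.0478% of all genes were. Rnf150, the neighbour on the far side of Tbc1d9, had a log2 fold change of 0.93 with an SE of 0.68. Scoc, on the far side of Elmod2, had 0.13 (SE 0.17). Ucp1 itself, between them, had -0.17 (SE 0.10, limma adjusted p = 0.959). The log2 fold changes at 4°C were 1.22 for Elmod2 (limma adjusted p = 0.0151) and 0.93 for Tbc1d9 (adjusted p = 0.215). Which neighbours of Ucp1 are carried in the transgene was not tested.

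**Figure D2:**
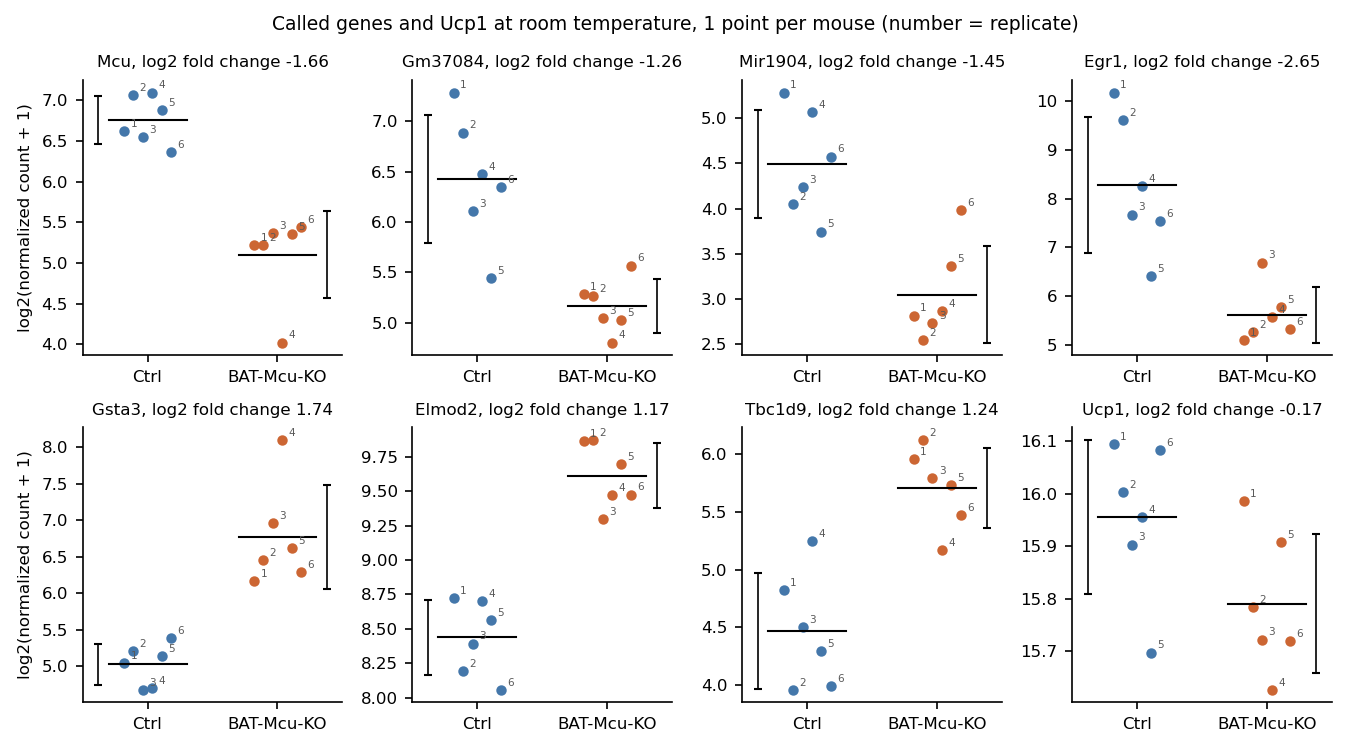
Log2(normalized count + 1) of the 7 called genes and Ucp1 in each mouse at RT, with the replicate number beside each point, the group mean as a line and the SD as a bar. For Mcu, Gsta3 and Elmod2 the groups do not overlap; for Ucp1 they do.

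Egr1, an immediate early transcription factor with zinc fingers, had the lowest log2 fold change of all genes. Its normalized count was 1148, 779, 203, 306, 83.9 and 186 in Ctrl RT 1 to 6. In BAT-Mcu-KO RT 1 to 6 it was 33.7, 37.4, 102, 46.6, 53.9 and 39.5. Number 3 of these lay within the control range, above Ctrl RT 5, and the other 5 lay below every control. The log2 fold change was -2.65 (SE 0.42, limma adjusted p = 0.00636, 95% interval -3.52 to -1.78). The SD among controls, 419.7, was close to their mean of 451, and with only the 12 RT libraries in the fit the call was lost (limma adjusted p = 0.202). At 4°C the log2 fold change was -0.03, and the difference between the temperatures, 2.62 on the log2 scale, had an unadjusted p of 0.00023 and an adjusted p of 0.70 in limma.

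Immediate early genes are transcribed within minutes of a stimulus without new protein synthesis, and many encode transcription factors or phosphatases that end signalling. Of 45 listed, 42 were found, and 30 of them had negative log2 fold changes. Besides Egr1, the only one called, 7 members were lower at an unadjusted limma p under 0.05 and 1 was higher. That makes 8 of 42 lower, where 2.27% of all genes were. The median of the list was -0.19, against 0.00078 for all genes.

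Junb, which encodes an AP-1 subunit, was at 743, 599, 389, 404, 159.5 and 342 in the controls and at 100.1, 176, 353, 187, 178.5 and 220.1 in BAT-Mcu-KO mice, a log2 fold change of -1.06 (SE 0.27, limma adjusted p = 0.451). Fos, its partner in AP-1, ranged from 9.32 to 385 with a median of 38 in controls and from 2.79 to 60.1 with a median of 6.76 in BAT-Mcu-KO mice. The log2 fold change was -2.27 (SE 0.72). Dusp1, a phosphatase that inactivates MAP kinases, had -0.95 (SE 0.30), with 338 to 1425 in controls and 162 to 774 in BAT-Mcu-KO mice. Klf4, Zfp36, Plk2 and Arc had -0.56, -0.48, -0.51 and -0.64. Gadd45b, a stress sensor, went the other way, with 3.26 to 37.8 in controls, 13.01 to 95.9 in BAT-Mcu-KO mice and a log2 fold change of 1.57 (SE 0.45, limma adjusted p = 0.712).

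The same mice were high for several of these genes. Ctrl RT 1 and 2 held the highest values of Egr1, Fos, Junb and Zfp36, and BAT-Mcu-KO RT 3 the highest of its group for Egr1, Fos, Junb and Dusp1. The mean log2 level of the list was 6.90 and 6.79 in Ctrl RT 1 and 2, 6.29 to 6.37 in the other 4 controls and 6.05 to 6.50 in BAT-Mcu-KO mice, so the groups overlapped. Without 1 mouse at a time the list median relative to all genes stayed between -0.26 and -0.15. In the mice at 4°C the median was -0.13, with 2 members lower and none of the 42 higher at an unadjusted limma p under 0.05, where 2.81% and 4.17% of all genes were lower and higher. The time from death to freezing of each sample is not given in the labels, and its part in these values was not tested.

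**Figure D3:**
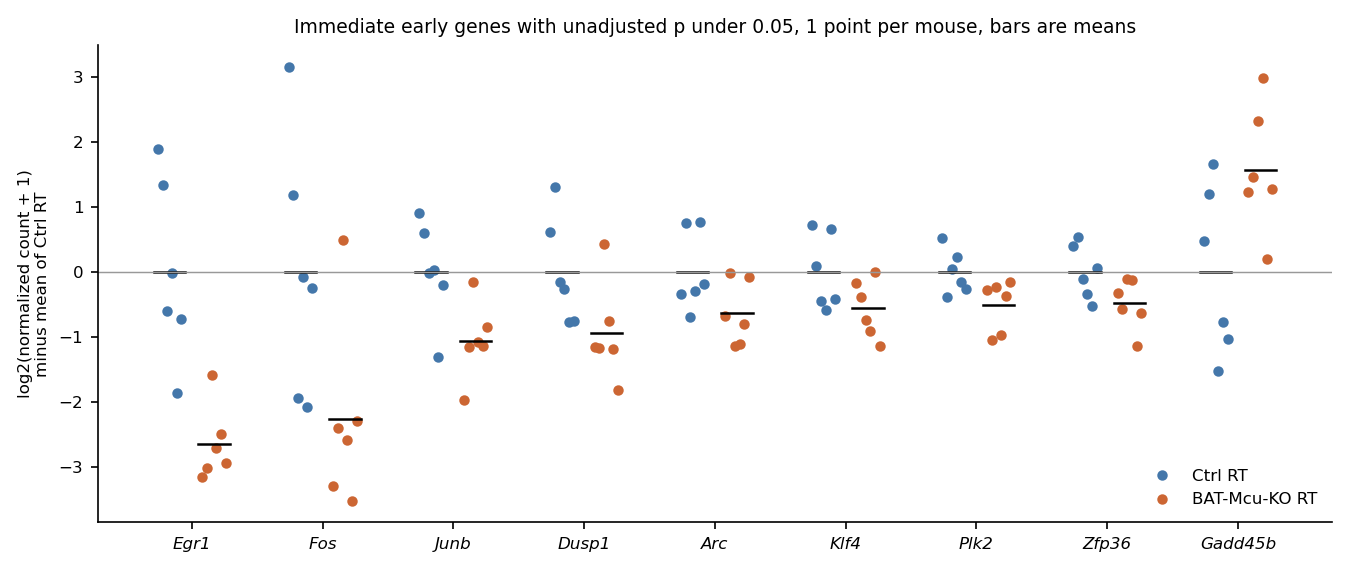
Log2(normalized count + 1) of the 9 immediate early genes with an unadjusted limma p under 0.05, in each mouse at RT, relative to the mean of Ctrl RT; black bars are group means. 8 of them have a lower mean in BAT-Mcu-KO mice and Gadd45b a higher one, and the points of the groups overlap for each.

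Promoters of 3 members are shown because they hold the element that CREB or SRF is known to bind at such genes. Capitals mark the cAMP response element TGACGTCA (CRE) or the CArG box, searched on both strands of the 250 bases before the RefSeq start (GRCm38.p6), at chr17:26508473-26508722 on the minus strand, chr13:110394794-110395043 on the plus strand and chr7:28379229-28379478 on the minus strand.
Dusp1 promoter, CRE: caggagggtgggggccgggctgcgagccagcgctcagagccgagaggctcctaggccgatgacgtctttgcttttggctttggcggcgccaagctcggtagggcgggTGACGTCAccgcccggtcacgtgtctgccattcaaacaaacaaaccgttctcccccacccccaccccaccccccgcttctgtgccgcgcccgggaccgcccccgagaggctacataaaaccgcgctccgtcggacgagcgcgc
Plk2 promoter, CRE: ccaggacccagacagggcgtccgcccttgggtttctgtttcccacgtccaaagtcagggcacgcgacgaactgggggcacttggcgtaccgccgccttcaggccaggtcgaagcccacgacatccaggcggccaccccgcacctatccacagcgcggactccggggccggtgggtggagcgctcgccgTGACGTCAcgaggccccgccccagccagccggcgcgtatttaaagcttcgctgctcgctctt
Zfp36 promoter, CArG box: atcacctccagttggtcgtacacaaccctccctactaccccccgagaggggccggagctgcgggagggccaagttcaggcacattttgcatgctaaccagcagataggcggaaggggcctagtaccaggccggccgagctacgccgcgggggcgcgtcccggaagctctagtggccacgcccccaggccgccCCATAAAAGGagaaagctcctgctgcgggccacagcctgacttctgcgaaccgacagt
The CRE was present in 3 of the 34 promoters of the list with a RefSeq entry here (Btg2, Dusp1 and Plk2; 8.82%) and in 1.62% of all promoters, and the CArG box in 2 (Srf and Zfp36; 5.88%) and in 1.40%. Egr1, the called member of the list, was not among the genes named with either element. The search covered 34 of the 42 members found and only these 250 bases, so it does not show that Egr1 lacks such elements. The AP-1 motif was present in 1 of the 34 (Zfp36l1, 2.94%) and in 6.87% of all promoters. A match is a stretch of letters and not a measured binding site. The core of the antioxidant response element was present in 6 of the 34 (17.6%) and in 10.1% of all promoters. Dusp1 was among the 6, and its match lies outside the CRE.

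The other called genes were lower and lie inside larger genes. Gm37084, a predicted gene inside Mapkapk2 on the same strand, had a normalized count of 42.5, 84.3 and 155 at the lowest, median and highest in Ctrl RT and of 26.9, 34.7 and 46.4 in BAT-Mcu-KO RT. In 5 of 6 BAT-Mcu-KO mice it was below every control, and the log2 fold change was -1.26 (SE 0.22, limma adjusted p = 0.0145). Mapkapk2 itself had 0.0031. The locus of Mir1904, inside Pde4d on chromosome 13 from 109903809 to 109903888, had 37.99, 15.5, 17.9, 32.6, 12.4 and 22.8 in controls and 6.04, 4.83, 5.64, 6.27, 9.29 and 14.8 in BAT-Mcu-KO mice, where number 6 lay within the control range and the other 5 below it. This gave a log2 fold change of -1.45 (SE 0.27, limma adjusted p = 0.0268), and it was called in 5 of the 12 fits that left out 1 mouse. Pde4d, a cAMP phosphodiesterase, had 0.12. Reads of a surrounding gene could have been counted on either locus, and Smart-seq2 starts from polyadenylated RNA, so the mature microRNA was not measured. Its RefSeq sequence is given to identify the locus, with the seed in capitals.
mmu-miR-1904, chr13:109903819-109903840, plus strand: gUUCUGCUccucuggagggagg

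Below the threshold, the next genes by p followed skeletal muscle markers to varying degrees, without a clear division. The highest positive correlations were those of Trim72, a membrane repair protein of muscle, Fhl3, a LIM protein, Extl1, Jph1 and Dnajb5. Jph1 is a junctophilin that ties the sarcoplasmic reticulum to the plasma membrane. Trim72 had 0.993 to 3.88 in controls and 12.1, 7.24, 24.4, 21.5, 0.929 and 25.7 in BAT-Mcu-KO mice, a log2 fold change of 2.10 (SE 0.58, limma adjusted p = 0.684). Extl1, Fhl3, Dnajb5 and Jph1 had 2.38, 1.56, 1.32 and 1.2. Their correlation with the mean log2 level of 14 muscle markers over the 12 mice, each taken relative to its group mean, was 0.86 for Extl1, 0.88 for Fhl3, 0.64 for Dnajb5, 0.86 for Trim72 and 0.86 for Jph1. Slc4a7, Pip4k2a and Tram2 came next at 0.60, 0.56 and 0.55. Negative values were also seen, with Meox1 at -0.74, Tmem206 at -0.55 and Utp14b at -0.54. With BAT-Mcu-KO RT 3, 4 and 6 left out the log2 fold changes of Extl1, Fhl3, Dnajb5, Trim72 and Jph1 were 1.04, 0.70, 0.62, 1.06 and 0.50. The median of the muscle markers relative to all genes was then -1.11, so these genes did not follow the markers in that comparison. DESeq2 on the whole reads called Extl1, Fhl3, Dnajb5 and Trim72 (adjusted p = 0.0278, 0.0159, 0.0192 and 0.0159).

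Of the next genes by p with a muscle correlation below that of Dnajb5, Rragd had the smallest p. It encodes a RAG GTPase that recruits mTORC1 to lysosomes, and its normalized count was 4.14 to 15.2 in controls and 15.7 to 52.9 in BAT-Mcu-KO mice, with no overlap. The log2 fold change was 1.57 (SE 0.33, limma adjusted p = 0.102), it was called by DESeq2 (adjusted p = 0.00248), and its correlation with the muscle level was 0.45. Without BAT-Mcu-KO RT 3, 4 and 6 it had 0.97. At 4°C it was 0.11. Actr3b, an actin-related protein, had 1.63 (SE 0.34, limma adjusted p = 0.108).

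Tram2, a translocon-associated membrane protein that takes part in collagen synthesis, had 64.6, 61.1, 59.5, 42.4, 58.0 and 33.8 in controls and 28.5, 20.5, 23.5, 42.1, 17.7 and 18.8 in BAT-Mcu-KO mice. Only BAT-Mcu-KO RT 4 lay within the control range. The log2 fold change of -1.08 (SE 0.25, limma adjusted p = 0.225) was accompanied by -1.31 in the mice at 4°C, where it was called (limma adjusted p = 0.0354). Fam13a, expressed in adipocytes, had 3007 to 10121 in controls and 7180 to 15885 in BAT-Mcu-KO mice, a log2 fold change of 0.90 (SE 0.21, limma adjusted p = 0.257). It was the most abundant of the 30 genes of smallest p.

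Non-overlapping groups, which 0.218% of all genes showed, were also seen for several genes that failed the call. Meox1, a homeobox factor, had 26.9 to 40.7 in controls and 8.06 to 26.0 in BAT-Mcu-KO mice (log2 fold change -1.15), and its correlation with the muscle level was -0.74. Tmem206, a proton-activated chloride channel, had 53.8 to 80.5 and 31.4 to 51.1 (-0.70). Pip4k2a, a phosphoinositide kinase, had 29.8 to 45.7 and 13.3 to 28.2 (-0.71). Osgin2 had 75.1 to 106.7 and 130.3 to 157 (0.58). Their log2 fold changes at 4°C were -0.14, 0.11, -0.04 and -0.31.

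Emcn, an endothelial sialomucin, had 276 to 408 in controls and 206 to 295 in BAT-Mcu-KO mice, a log2 fold change of -0.43 (SE 0.11, limma adjusted p = 0.454). Of the 12 endothelial markers it was the only one with an unadjusted p under 0.05, and the summed level of the markers was 7475 to 9561 and 7175 to 9460. The remaining genes of the 30 were Slc4a7 (0.51), a bicarbonate transporter, Yeats4 (0.57), a reader of acetylated histones, Zhx3 (0.40), Utp14b (-0.97), Muc6 (-1.58), Ctcflos (-0.43) and the clone-named transcripts RP23-407I6.4 (-0.91) and RP23-38L11.1 (-1.23). Utp14b lies inside Acsl3 on the same strand, and Zhx3 and Ctcflos overlap genes on the other strand, so counts without strand could mix them.

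Among 19 genes of the uniporter and of mitochondrial calcium handling, Mcu was called. 2 others were higher at an unadjusted limma p under 0.05, as 2.88% of all genes were, and the median was 0.03. The regulators Micu2 and Micu3 had log2 fold changes of 0.22 and -0.08, with SEs of 0.23 and 0.08. Smdt1, which encodes EMRE, had 1813 to 2149 in controls and 1734 to 2271 in BAT-Mcu-KO mice, a log2 fold change of -0.03 (SE 0.08). Ccdc109b, the dominant-negative pore paralog also called Mcub, had 3.11 to 14.4 and 3.58 to 10.9 (-0.22, SE 0.54). Mcur1 had 0.02.

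Of the routes by which calcium leaves or crosses the matrix membrane, Slc8b1, the mitochondrial sodium-calcium exchanger, had 97.3, 100.4 and 137 at the lowest, median and highest in Ctrl RT and 108, 141 and 173 in BAT-Mcu-KO RT. Its log2 fold change was 0.43 (SE 0.16, limma adjusted p = 0.940). In the separate mice at 4°C it was 0.69. Letm1 had 0.48 (SE 0.27), with 1403 to 3473 in controls and a highest value of 6275 in BAT-Mcu-KO mice. Phb2 and Afg3l2, a prohibitin and an m-AAA protease subunit that processes EMRE, had 0.26 and 0.38, and the other protease subunit Spg7 had 0.09. Phb had 0.03. Ghitm, Slc25a23 and Slc25a25 had 0.05, -0.14 and -0.20. Vdac1, Vdac2 and Vdac3, channels of the outer membrane, had 0.15, 0.0067 and 0.12.

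The thermogenic genes gave no nominal difference. Of 34 listed, 33 were found, none reached an unadjusted limma p under 0.05 in either direction, and the median was -0.03. Without BAT-Mcu-KO RT 3, 4 and 6 the median relative to all genes was 0.0069. Ucp1 had 53146 to 70028 in controls and 50590 to 64889 in BAT-Mcu-KO mice. Ppargc1a, a coactivator of mitochondrial biogenesis, had 419 to 851 and 275 to 795, a log2 fold change of -0.08 (SE 0.22), while it had -0.85 in the mice at 4°C. Dio2, which converts thyroxine to its active form, had 187 to 880.2 and 262 to 1323 (-0.09, SE 0.32). Lhx8, Nrg4 and Cox8b had 0.43, -0.13 and -0.24.

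The enzymes that matrix calcium is known to activate gave small values as well. The pyruvate dehydrogenase complex and its regulators, 14 genes, had a median of 0.04 and no member with an unadjusted limma p under 0.05. Relative to all genes it was -0.06 without BAT-Mcu-KO RT 3, 4 and 6. Pdk2, a kinase that inhibits the complex, had 4667 to 5201 in controls and 5105 to 6025 in BAT-Mcu-KO mice (0.17, SE 0.09). Pdp1, the phosphatase that calcium activates, had 72.5 to 125 and 77.7 to 139 (0.23, SE 0.15). Mpc2, part of the pyruvate carrier, had -0.16 and Pdpr 0.18. The 27 citrate cycle genes had a median of 0.02, with Ogdh at 0.13 (SE 0.08), Got1 at 0.18 and Idh2 at 0.08. Without BAT-Mcu-KO RT 3, 4 and 6 their median relative to all genes was -0.0025. Nnt, the transhydrogenase for which C57BL/6J mice are known to carry a deletion, had 14.5 to 31.1 and 22.4 to 65.4 (0.86, SE 0.30, limma adjusted p = 0.940), and -0.64 at 4°C.

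Nuclear genes of the respiratory chain had negative medians, and these values moved with 2 control libraries. The median was -0.11 for 37 complex I subunits, of which 30 were negative, -0.07 for 14 subunits of complexes II and III, -0.19 for 16 of complex IV and -0.09 for 19 of ATP synthase. None of the 86 was called, and 4 were lower at an unadjusted limma p under 0.05, as 2.27% of all genes were, namely Ndufc2 (-0.20), Cox7c and Cox5b (-0.25 and -0.25) and Usmg5 (-0.29). The next by p were Ndufs6, Ndufc1 and Ndufb11 (-0.19, -0.20 and -0.15), Uqcrb, Cycs, Uqcrh and Uqcr10 (-0.22, -0.14, -0.16 and -0.19), Cox7a2 and Cox6c (-0.21 and -0.22), and in ATP synthase Atp5g1, Atp5e and Atp5sl (0.99, -0.22 and 0.12). The mean log2 level of complex I was 12.35 and 12.45 in Ctrl RT 1 and 6, 11.83 to 11.98 in the other 4 controls and 11.86 to 12.13 in BAT-Mcu-KO mice.

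With Ctrl RT 1 and 6 left out the medians relative to all genes were 0.06, 0.06, 0.0041 and 0.06 for complex I, complexes II and III, complex IV and ATP synthase, so the direction turned. In the mice at 4°C the medians were 0.07, 0.10, 0.03 and 0.04. The muscle forms went against their lists, Cox6a2 at 2.22 and Rpl3l, a ribosomal protein of muscle, at 1.76. The 82 cytosolic ribosomal proteins followed the same 2 controls, with a median of -0.12 (75 negative), and 0.04 relative to all genes without those libraries. Rpl37, Rpl35, Rps27a and Rps27l had -0.31, -0.34, -0.20 and -0.19.

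**Figure D4:**
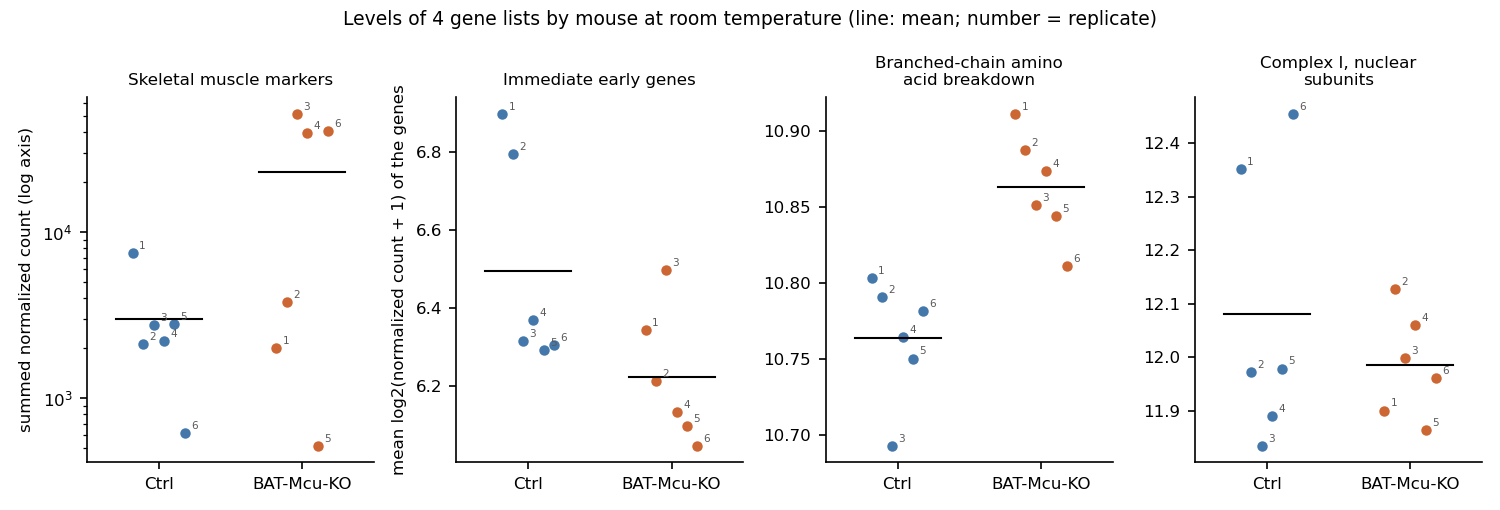
Levels of 4 gene lists in each mouse at RT, with replicate numbers and group means as lines: the summed normalized count of 14 skeletal muscle markers on a log axis, and mean log2(normalized count + 1) of 42 immediate early, 23 branched-chain amino acid breakdown and 37 complex I genes. Muscle markers are high in BAT-Mcu-KO 3, 4 and 6, complex I in Ctrl 1 and 6, and only for amino acid breakdown do the groups separate.

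Of the 56 gene lists, 46 had a median within 0.1 of 0 on the log2 scale, and the medians ran from -0.19 to 0.29. The highest was that of the EGF family, of which 9 of 14 genes were found. Erbb3, a receptor for neuregulins, had 43.3 to 62.0 in controls and 63.9 to 101.3 in BAT-Mcu-KO mice, with no overlap, and a log2 fold change of 0.55 (SE 0.20, limma adjusted p = 0.940). Egfr had 0.41 and the ligand Hbegf 0.55 (SE 0.50), while the ligand Nrg4 had -0.13. The median relative to all genes was 0.11 without Ctrl RT 1 and 6, and at 4°C the median of the family was -0.03.

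Immune lists had negative medians at RT. MHC class II genes (7 found) had a median of -0.18, with H2-Eb1 at -0.29 (SE 0.13), H2-Aa at -0.21, H2-Ab1 at -0.19 and their activator Ciita at -0.18. Relative to all genes the median ran from -0.26 without Ctrl RT 5 to -0.0087 without Ctrl RT 1, with -0.03 and -0.02 without Ctrl RT 2 and 4, and was -0.08 without BAT-Mcu-KO RT 3, 4 and 6. The 36 interferon-stimulated genes had a median of -0.13, with 27 negative, 1 lower and 1 higher at an unadjusted limma p under 0.05. Ddx58, the RNA sensor RIG-I, had 168 to 248 in controls and 129 to 207 in BAT-Mcu-KO mice (-0.35, SE 0.14), Oas2 had 0.76, Parp14 -0.30 and Psmb9 -0.30. In the mice at 4°C these medians were 0.14 and 0.20.

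The 22 glucocorticoid receptor targets had a median of 0.14, with 17 positive. Arrdc2 had 0.67 (SE 0.30), Klf9 0.16 and Sgk1 -0.24, and the lowest was Dusp1, which is also an immediate early gene. Relative to all genes this median was -0.06 without BAT-Mcu-KO RT 3, 4 and 6. The creatine cycle (7 found) had 0.13, with the muscle kinases Ckmt2 (2.33, SE 1.60) and Ckm (2.05, SE 2.24) at 0.929 to 802 and 0 to 5811 in BAT-Mcu-KO mice, and Ckb and Gatm, which brown adipocytes express, at 0.23 and 0.13.

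**Figure D5:**
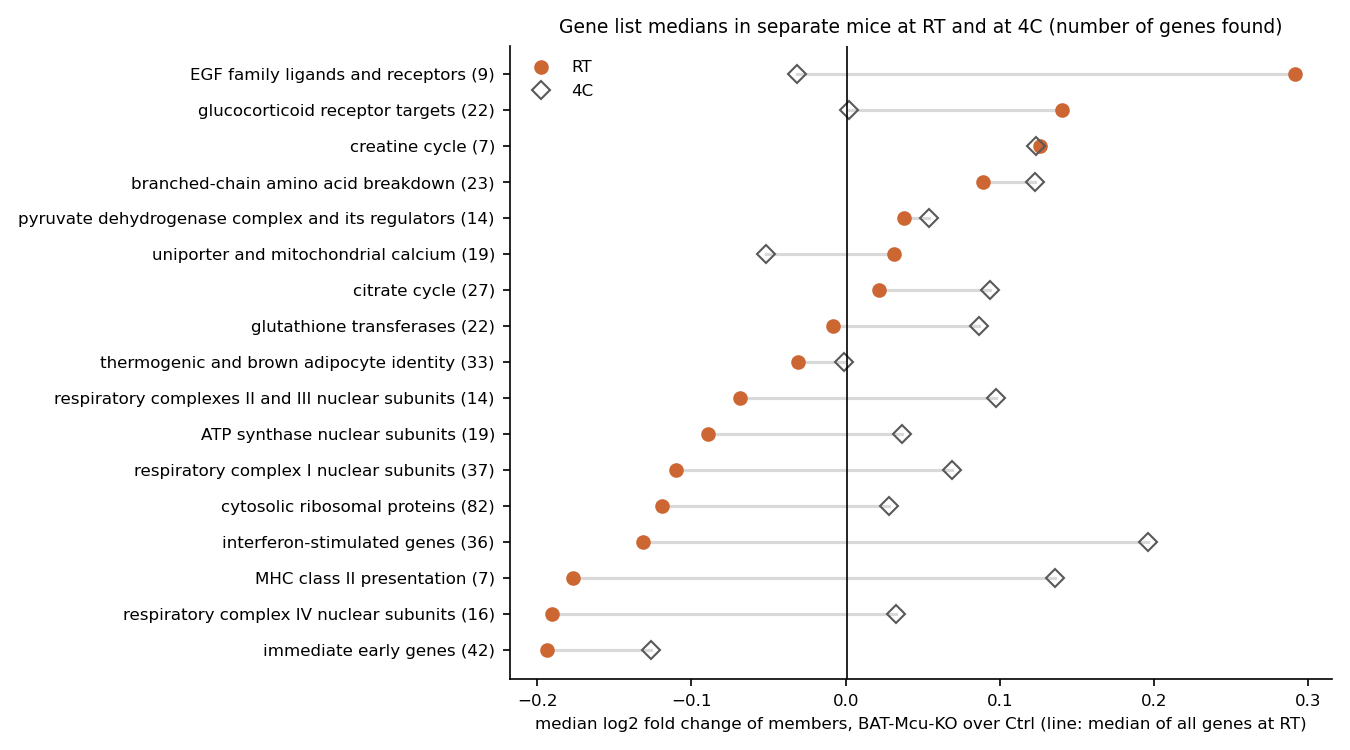
Median log2 fold change by genotype of each gene list at RT (filled) and in separate mice at 4°C (open), with the number of genes found; the vertical line is the median of all genes at RT. The RT medians lie between -0.19 and 0.29, and those of the respiratory chain lie on opposite sides of the line at the 2 temperatures.

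Breakdown of branched-chain amino acids, a route by which brown adipocytes are known to feed the citrate cycle, was chosen for description after its values were seen. It was the only one of 68 gene and marker lists whose mean level by mouse did not overlap between genotypes, although no member reached an unadjusted limma p under 0.05. The mean log2 level of its 23 genes was 10.69 to 10.80 in Ctrl RT and 10.81 to 10.91 in BAT-Mcu-KO RT. The median log2 fold change was 0.09, with 16 members positive, and relative to all genes it stayed between 0.06 and 0.11 without any 1 mouse, at 0.13 without Ctrl RT 1 and 6 and at 0.09 without BAT-Mcu-KO RT 3, 4 and 6. In the mice at 4°C the median was 0.12, with 19 positive, where 7508 of all 14651 genes were. A high share of positive members was not particular to this list. Complex I had 35 of 37 positive there and complexes II and III 13 of 14, while immediate early genes had 14 of 42. At an unadjusted limma p under 0.05, 7 of the 23 genes were higher at 4°C and 0 lower, where 4.17% and 2.81% of all genes were. Complex I had 2 of 37 higher by that measure, complexes II and III 0 of 14, and mitochondrial fatty acid oxidation 5 of 29.

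Among its members, Ppm1k, the phosphatase that activates the branched-chain ketoacid dehydrogenase, had 447 to 618 in controls and 560.0 to 733 in BAT-Mcu-KO mice (0.28, SE 0.14). Hibadh had 2441 to 3428 and 3042 to 5627 (0.33, SE 0.16). Bckdhb, a subunit of the dehydrogenase, had 0.47 (SE 0.33), with 1 BAT-Mcu-KO mouse at 3145 and a group median of 791. Bckdk, the kinase that inhibits the dehydrogenase, had -0.06, and Slc25a44, the mitochondrial carrier of these amino acids, -0.08.

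Levels of markers of other cells differed between libraries. The 14 skeletal muscle markers summed to 7471, 2111, 2737, 2202, 2792 and 617 in Ctrl RT 1 to 6 and to 1990, 3789, 51361, 39332, 515 and 40329 in BAT-Mcu-KO RT 1 to 6. All 14 had positive log2 fold changes with a median of 1.83, and 8 were at 0 in at least 1 library. Tnnc2 and Myh7, 2 of the 14, were higher at an unadjusted limma p under 0.05, as 2.88% of all genes were. Without BAT-Mcu-KO RT 3, 4 and 6 the median relative to all genes was -1.11, so the direction turned. In bulk tissue, fewer cells of a type and less RNA per cell cannot be told apart. With the muscle level as a covariate the same 7 genes were called, among them Gsta3 at 1.67 and Egr1 at -2.72. Without BAT-Mcu-KO RT 3, 4 and 6, 7 genes were called, of which 5 were shared, and Gm37084 and Mir1904 were lost, with log2 fold changes of -1.23 and -1.59 against -1.26 and -1.45 in all 12 mice.

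All 6 erythrocyte markers found were negative, with a median of -0.58, and 3 were lower at an unadjusted limma p under 0.05, as 2.27% of all genes were. Hbb-bt had 232 to 672 in controls and 102 to 470 in BAT-Mcu-KO mice (-0.75, SE 0.31), and Hba-a2 and Hbb-bs had -0.60 and -0.56. Their summed level was 2983 to 6966 and 1885 to 5461, and at 4°C the median was -0.02. Macrophage markers summed to 1014 to 1388 and 793 to 1467, and fibroblast markers to 5486 to 8893 and 4907 to 8729. Of 13 lymphocyte markers listed 2 were found. The part of blood and muscle in the other results was not tested beyond these values.

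The size of effect that these mice could have hidden was read from the intervals. For 11690 genes (79.8%) the 95% interval of the log2 fold change lay within 2-fold in either direction, and for 8145 (55.6%) within 1.5-fold. Among the 9531 genes that averaged 50 normalized counts or above, the shares were 96.8% and 81.7%. The median SE was 0.18. The intervals were wider for genes with few reads.

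On the first 3 principal components of the 12 mice, which held 19.7%, 13.3% and 9.74% of the variance, no separation of the genotypes was detected (exact permutation tests, two-sided, p = 0.528, 0.195 and 0.290, adjusted over the 3 components 0.528, 0.435 and 0.435). When genes were centred but not scaled, the first component held 28.1% and followed the muscle markers (r = 0.97 over 12 mice, a description of points that share the same libraries). Genotype effects at RT and at 4°C, which share no mice, had the same sign for 370 of the 754 genes with an unadjusted p under 0.05 at RT (49.1%) and for 7278 of all 14651 genes (49.7%). Their correlation across genes, which are not independent replicates, was -0.12. Of the 7 genes called at RT, all 7 had the same sign at 4°C, and 3 of them, Mcu, Gsta3 and Elmod2, were among the 0.0751% of genes called there.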

How the data were processed

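RNA-seq of BAT used Smart-seq2 libraries read from both ends. Per the labels and the study's methods, the authors aligned reads to mm10 with GENCODE M7 annotations (STAR 2.4.0j), counted uniquely mapped exonic reads irrespective of strand with HTSeq, dropped genes that did not reach 8 reads in 6 samples and divided by DESeq2 size factors. The signal that the authors deposited is this table of normalized counts. A second deposited table, of the authors' fold changes and p-values, was not used. Per-sample columns left out numbered 0, and 19 symbols turned into dates were tested and not named. Values were whole multiples of 1 read within a tolerance of 0.02 for 100% of values in each RT library, which gave the reads. Depth ranged from 11088466 to 17394689 reads per RT library, and PCR copies of a molecule are not told apart in them.

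Limma (version 3.58.1, R version 4.3.3) was fitted to log2(normalized count + 1) as 4 group means over all 23 samples and a variance trend, and p-values were adjusted by the Benjamini-Hochberg method over 14651 genes. The pseudocount of 1 understates changes of low genes. Single values of each mouse went into two-sided exact permutation tests. Lists were described by counts and medians without a test. Genes named were those called, the next by p to 30 in all without predicted genes and microRNA hosts, up to 4 members of smallest p in each list described, the uniporter list (1 member is not reported here), and Ucp1, Ppargc1a and Dio2, with a few others named beside the result they touch. The 8 lists of 6 or more genes with medians farthest from all genes were described, with those tied to uniporter function and the called genes. The members and lists were chosen with earlier results of these data known. Positions come from GENCODE M21 (GRCm38) and promoters and the microRNA from RefSeq (GRCm38.p6).

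Alternatives were a pseudocount of 0.5 or 10, a mean of 50 or more, quantile normalization, scaling to the 75th percentile, limma without trend, only the 12 RT samples, a block for replicate number, each RT sample left out, and on the recovered reads the quasi-likelihood test of edgeR 4.0.16 or the Wald test of DESeq2 1.42.0. A muscle covariate and the omission of 2 sets of libraries were added after seeing the data. Tables were handled with pandas 2.3.3 and scipy, and figures drawn with matplotlib 3.10.9.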

Additional observations from a re-analysis of the deposited data

Results flagged for a closer look

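In 126 groups of 6 mice, 10 held a sample at the edge whose gap to the next exceeded Dixon's 95% critical value of 0.625, and chance gives about 1 in 20. All values here are on the log2 scale unless stated. For Mcu, BAT-Mcu-KO RT 4 had 4.02 and the other mice of its group 5.22 to 5.44. For Extl1, Ctrl RT 1 had 3.10 against 0 to 1.06. MHC class II genes averaged 7.37 in BAT-Mcu-KO RT 4 against 6.79 to 6.998.

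Ctrl RT 6 was low for the creatine cycle, 5.05 against 6.58 to 7.23, and for skeletal muscle markers, 2.00 against 5.71 to 7.33. Ctrl RT 3 was low for brown adipocyte markers, 10.61 against 10.87 to 11.01. BAT-Mcu-KO RT 5 was low for the pyruvate dehydrogenase genes, 10.96 against 11.20 to 11.30, and for pericyte and smooth muscle markers, 8.57 against 8.88 to 9.05. The same mouse had 34.8% of reads on the mitochondrial genome, against 31.3% to 32.3%, and a score of 58.5 on principal component 2, against -47.3 to -18.4.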

How the results depend on the processing

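Against 7 calls at RT (3 higher, 4 lower), DESeq2 gave 20 (13 higher, 7 lower), all 7 among them, and edgeR and the muscle covariate gave the same 7, while only the RT samples gave 3 (2 higher, 1 lower) and omission of Ctrl RT 1 and 6, chosen after seeing the data, 3 (1 higher, 2 lower). Without 1 mouse at a time there were 5 to 8 calls, 2 to 4 higher and 2 to 5 lower, the 2 without BAT-Mcu-KO RT 4. Mcu, Gsta3, Egr1 and Elmod2 were called in all 12 of these fits. Tbc1d9 was called in 8, and lost without Ctrl RT 2 or 6 or BAT-Mcu-KO RT 1 or 2. Gm37084 was called in 10 and lost without Ctrl RT 2 or BAT-Mcu-KO RT 4, and Mir1904 was called in 5. At unadjusted p there were 458 genes (271 higher, 187 lower) among those with a mean of 50 or more. Leaving out 1 mouse gave 578 to 888 (279 to 512 higher, 278 to 381 lower), the 279 without Ctrl RT 6. The higher share, 56.0% of 754, was 43.8% under quantile normalization and 40.4% under 75th percentile scaling. The cause was not tested.

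With the replicate number as a block in the RT samples 1 gene was called (1 higher, 0 lower). Deviations of same-numbered mice correlated at -0.135 to 0.0652, and 1 control and 0 BAT-Mcu-KO mice correlated best with their own number. Such values cannot show whether the numbers pair the mice, since a pairing with little effect on expression would give the same. With 6 mice a group, the 95% interval lay within 2-fold for 79.8% of all genes and for 96.8% of those with a mean of 50 or more.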
